A study of Homo sapiens with 3 samples.

Results

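A set of 10 genes for AP-1 and immediate early transcription factors was followed in HCT116, a long-established line of human colorectal carcinoma cells: FOS, FOSB, FOSL1 and FOSL2 of the FOS family, JUN, JUNB and JUND of the JUN family, and ATF3, EGR1 and IER2. They were taken by gene name from a deposited table of 58302 genes, all 10 were found, and all 10 were among the 17263 genes that passed a filter on low counts. The genes were proposed with the difference from the control known, FOSL2 and JUNB having been seen to be lower with both siRNAs, so their difference from the control is described here and not tested. RNA was sequenced from cells given siRNA 1 against DUOX2, from cells given siRNA 2 against DUOX2, and from cells given a control siRNA, with 1 library each, total RNA and the same cell line throughout. DUOX2 is an NADPH oxidase that releases hydrogen peroxide, and per the design text the comparison was of cells low in DUOX2 with control cells. The labels give no time after transfection and no dose, and do not say whether the libraries came from separate cultures.

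AP-1 is a dimer of basic leucine zipper proteins that binds a short palindrome in DNA. FOS family proteins bind DNA together with a JUN family partner, whereas JUN family proteins can also pair with each other. Immediate early genes are transcribed within minutes of a growth factor or stress signal without new protein synthesis, and many are short genes with unstable mRNAs. ERK signalling acts on FOS and EGR1 through serum response factor and its partners, and JNK signalling acts on JUN protein. In colorectal epithelium AP-1 lies downstream of RAS and ERK.

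The siRNA antisense strands are shown because their seeds, bases 2 to 8 in capitals, can pair with other transcripts. All strands are given 5′ to 3′ as the labels give them, with 2 T at the end.
siRNA 1: aACCACUAuguuguccucctt
siRNA 2: aUGAAGGAucgcaucauggtt
control siRNA: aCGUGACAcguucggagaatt
The 19-base sense strands of siRNA 1 and siRNA 2 matched DUOX2 and no other gene in GENCODE 29 transcripts, and that of the control siRNA matched none. The site that pairs with the seed of siRNA 1 was in 0 of the 10 genes' longest annotated 3′ UTRs, against 8.90% of the 3′ UTRs of 13189 tested genes. For siRNA 2 it was in 1 of the 10, ATF3, against 18.7% of 3′ UTRs, and for the control siRNA in 0 of 10, against 3.54%. FOSL2, whose 3′ UTR of 4864 bases is the longest of the 10, and JUNB, with 500 bases, held none of the 3 sites.

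Promoters are shown for FOSL2 and JUNB, the genes at least 2-fold lower with both siRNAs, and for JUN and EGR1, which hold known kinds of motif. Each line gives the 250 bases before the RefSeq start (GRCh38.p14), with motifs found by script in capitals. The FOSL2 and JUN windows lie wholly inside the gene coordinates given below, whose 5′ ends are at 28392448 and 58784327. The JUNB and EGR1 windows lie outside theirs.
FOSL2, chr2:28392608-28392857, plus strand: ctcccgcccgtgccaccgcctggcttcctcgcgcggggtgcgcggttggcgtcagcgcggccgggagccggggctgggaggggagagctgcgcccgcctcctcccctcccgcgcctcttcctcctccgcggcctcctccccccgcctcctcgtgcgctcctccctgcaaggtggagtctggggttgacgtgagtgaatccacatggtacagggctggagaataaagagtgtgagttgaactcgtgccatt
JUNB, chr19:12791236-12791485, plus strand: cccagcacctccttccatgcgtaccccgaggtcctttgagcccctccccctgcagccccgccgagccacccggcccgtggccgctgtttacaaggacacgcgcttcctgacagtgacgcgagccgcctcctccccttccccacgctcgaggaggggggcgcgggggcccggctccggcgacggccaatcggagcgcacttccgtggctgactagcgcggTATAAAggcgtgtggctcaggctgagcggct
JUN, chr1:58784048-58784297, minus strand: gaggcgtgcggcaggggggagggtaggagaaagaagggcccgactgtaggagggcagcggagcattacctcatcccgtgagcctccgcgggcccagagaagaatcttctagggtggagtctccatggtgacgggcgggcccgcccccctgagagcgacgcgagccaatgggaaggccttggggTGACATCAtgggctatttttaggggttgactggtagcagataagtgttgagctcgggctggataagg
EGR1, chr5:138465229-138465478, plus strand: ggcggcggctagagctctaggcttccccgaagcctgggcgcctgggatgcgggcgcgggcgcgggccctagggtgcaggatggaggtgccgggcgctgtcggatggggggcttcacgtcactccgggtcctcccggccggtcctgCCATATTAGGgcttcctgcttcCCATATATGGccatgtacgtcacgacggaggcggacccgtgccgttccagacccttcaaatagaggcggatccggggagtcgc
A set of 5 motifs was searched on both strands: the AP-1 motif TGANTCA, the CRE-like motif TGACNTCA, the CArG box bound by serum response factor, the EGR motif GCGGGGGCG and TATAAA. RefSeq promoters matched 9 of the 10 genes, ATF3 with 2, and none was at hand for FOSL1, so its promoter was not searched. None of the 5 motifs was in the FOSL2 window, which lies within the annotated gene. Sequence upstream of the annotated FOSL2 and JUN genes was not searched. JUNB held TATAAA 31 bases before the start, against 10.7% of 35114 promoters with it anywhere in the 250 bases. FOS held it at 33, FOSB at 30 and an ATF3 window at 230 bases before the start. EGR1 held 2 CArG boxes, 105 and 83 bases before the start, against 1.16% of promoters with any. The CRE-like motif was found in JUN at 67, JUND at 200 and ATF3 at 123 bases before the start, against 6.87% of promoters. AP-1 and EGR motifs, held by 6.57% and 4.72% of promoters, were in none of the 10 windows. No motifs overlapped in these windows. The FOSL2 and JUNB windows were 69.6% and 70.8% G or C, against a median of 58% over all promoters.

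Total counts were 19130768 with siRNA 1, 18832672 with siRNA 2 and 17589502 in the control. DUOX2 itself (ENSG00000140279) had 2, 0 and 2 counts, at or under the 3 counts taken as the limit of a count of 0 (0.157 to 0.171 CPM). The target thus gives no check of the labels. With the control also under this limit, these counts cannot show whether the siRNAs lowered DUOX2. The protocol in the labels speaks of retinas. Of 8 retinal markers, 5, among them CRX and SAG, were at 0 in every library, and all 8 together had 22, 15 and 24 counts. Of 8 markers of colorectal epithelium 7 were detected, CDX1 being at 0, with 3284 CPM (counts scaled to a fixed library total) in sum with siRNA 1, 4870 CPM with siRNA 2 and 5349 CPM in the control. Summed markers of fibroblasts, leukocytes and endothelium were between 0.261 and 4.21 CPM in each library, with PTPRC and PECAM1 at 0. The part of these differences in the results below was not tested.

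Levels of different genes were compared as CPM per kilobase of union exon (RPKM), from the deposited counts and GENCODE 29 exons. The deposited FPKM was not used for this, since the gene length it implies exceeded the union of exons by over 1.5 times for 6 of the 10 genes, up to 2.97 times for FOSB. In the control, EGR1, a zinc-finger factor, was highest at 83.2 RPKM, and FOSL1, the gene of FRA-1, was next at 75.8 RPKM. JUN and JUND followed at 31.5 and 29.8 RPKM, and their 95% Poisson intervals overlapped. FOSL2, the gene of FRA-2, came next at 26.1 RPKM, JUNB at 20.2 and IER2, a nuclear protein of the early response, at 15.8 RPKM. FOS at 7.46 RPKM, ATF3 at 4.57 and FOSB at 1.87 were the lowest. By deposited FPKM FOSL1 would stand behind JUN in the control. Intervals here stand for counting error alone, as PCR copies of one molecule were not told apart, and with 1 library per label there is no replicate error. In bulk RNA, fewer cells with a transcript and less of it per cell cannot be told apart.

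With either siRNA FOSL1 was the highest of the 10 genes, at 64.2 RPKM with siRNA 1 and 72.3 RPKM with siRNA 2, above EGR1 at 50.7 and 57.0 RPKM. This order holds per union exon length, whereas by deposited FPKM EGR1 stood first and FOSL1 behind it with both siRNAs. FOSL2 had rank 9 of 10 with siRNA 1, at 2.52 RPKM, and rank 8 with siRNA 2, at 4.31 RPKM, against rank 5 in the control. The interval of FOSL2 with siRNA 2 overlapped that of ATF3, at 4.01 RPKM. IER2 and JUNB overlapped with siRNA 1, as did ATF3 and FOS, and with siRNA 2 FOS and JUNB overlapped. All other neighbours in the order with the siRNAs had separate counting intervals.

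**Figure D1:**
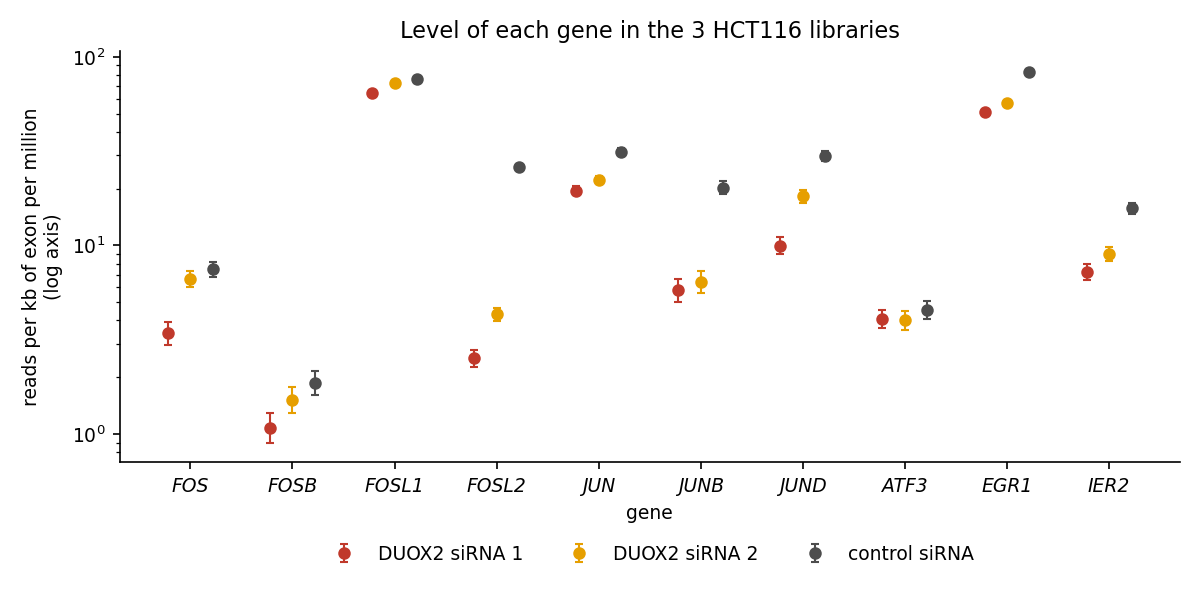
Level of each gene (CPM per kb of union exon, log axis) with siRNA 1, with siRNA 2 and in the control, 1 library each, with 95% Poisson intervals. FOSL2 is at 2.52 and 4.31 with the siRNAs and at 26.1 in the control, while FOSL1 lies between 64.2 and 75.8 in all 3 libraries.

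Fold changes are differences of log2 CPM after TMM scaling with a prior count of 2, each siRNA against the single control, so both comparisons share that library. All 10 genes were lower than in the control with both siRNAs, against 41.6% of all tested genes, and 2 of them, FOSL2 and JUNB, were at least 2-fold lower with both, against 5.05%. None of the 10 was higher with both by any size, against 41.9%, and none at least 2-fold higher with both, against 4% of tested genes. Taken singly, 3 of the 10 were at least 2-fold lower with siRNA 1, against 12.4%, and 2 with siRNA 2, against 7.84%, and none was 2-fold higher with siRNA 1, against 8.06%, or with siRNA 2, against 5.54%. The genes were chosen on this contrast, so nothing is read from these shares.

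In the FOS family, FOSL2 (ENSG00000075426, chr2:28392448-28417312, plus strand; this and all gene coordinates are on GRCh38) had 345 counts with siRNA 1 and 581 with siRNA 2, against 3286 in the control. Both siRNA libraries lay far below the control. After TMM scaling the ratio to the control was 0.107 with siRNA 1 (95% counting interval 0.0949 to 0.119) and 0.173 with siRNA 2 (0.157 to 0.188), that is 9.35-fold and 5.79-fold lower. Its mean log2 fold change was -2.88 ± 0.49 (SD, n = 2 siRNAs), and 41 of 17263 genes, FOSL2 included, were as low or lower with both siRNAs as FOSL2 with siRNA 2. FOSL2 shares no exon bases with another annotated gene.

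FOSL1 (ENSG00000175592, chr11:65892049-65900573) had 2318 counts with siRNA 1 and 2571 with siRNA 2, against 2516 in the control. Its log2 fold changes were -0.10 and -0.01, so the most abundant FOS family gene was near its control level in both. FOS (ENSG00000170345, chr14:75278774-75282230), the founding member, had 212 counts with siRNA 1 and 405 with siRNA 2, against 425 in the control. FOS was low with siRNA 1 alone, at a log2 fold change of -0.98, just short of 2-fold, and at -0.11 with siRNA 2. FOSB (ENSG00000125740, chr19:45467995-45475179), a close relative of FOS, had 115 and 159 counts with siRNA 1 and siRNA 2, against 183 in the control, or -0.64 and -0.24.

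Per exon length, FOSL2 made 3.54% of the summed FOS family level with siRNA 1 and 5.08% with siRNA 2, against 23.5% in the control. FOSL1 made 90.1% and 85.3% with siRNA 1 and siRNA 2, against 68.1% in the control. The summed level was 71.2 RPKM with siRNA 1 and 84.8 RPKM with siRNA 2, against 111.2 RPKM in the control, so the family as measured was nearer to FOSL1 alone with the siRNAs. After TMM scaling the ratio of the summed level to the control was 0.706 with siRNA 1 and 0.795 with siRNA 2.

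In the JUN family, JUNB (ENSG00000171223, chr19:12791496-12793315, plus strand), which often acts against JUN in growth control, had 202 counts with siRNA 1 and 219 with siRNA 2, against 648 in the control. The siRNA libraries lay close together, with 3.15-fold and 3.02-fold lower levels, and a mean log2 fold change of -1.62 ± 0.04 (SD, n = 2 siRNAs). The counting intervals of the ratio were 0.268 to 0.370 with siRNA 1 and 0.281 to 0.384 with siRNA 2. JUNB shares 14.2% of its exon bases with HOOK2 on the opposite strand, which had 382 and 418 counts with siRNA 1 and siRNA 2, against 505 in the control. Strand was not stated for the counting, so reads of the shared bases cannot be told apart.

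JUND (ENSG00000130522, chr19:18279760-18281622), the family member least tied to stimulation, had 356 counts with siRNA 1 and 640 with siRNA 2, against 975 in the control. It was 2.69-fold lower with siRNA 1 and 1.56-fold lower with siRNA 2, so it passed 2-fold with siRNA 1 alone. JUN (ENSG00000177606, chr1:58780788-58784327), which carries the strongest activation domain of the family, had 1321 and 1487 counts with siRNA 1 and siRNA 2, against 1959 in the control, or -0.55 and -0.44 on the log2 scale. The summed JUN family level was 35.3 RPKM with siRNA 1 and 46.9 RPKM with siRNA 2, against 81.5 RPKM in the control. JUN made 55.3% of it with siRNA 1 and 47.5% with siRNA 2, against 38.6% in the control, and JUNB made 16.4% and 13.6%, against 24.9%. After TMM scaling the ratio of the summed JUN family level to the control was 0.478 with siRNA 1 and 0.601 with siRNA 2. The trend on GC content described below was not removed from these sums and shares.

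**Figure D2:**
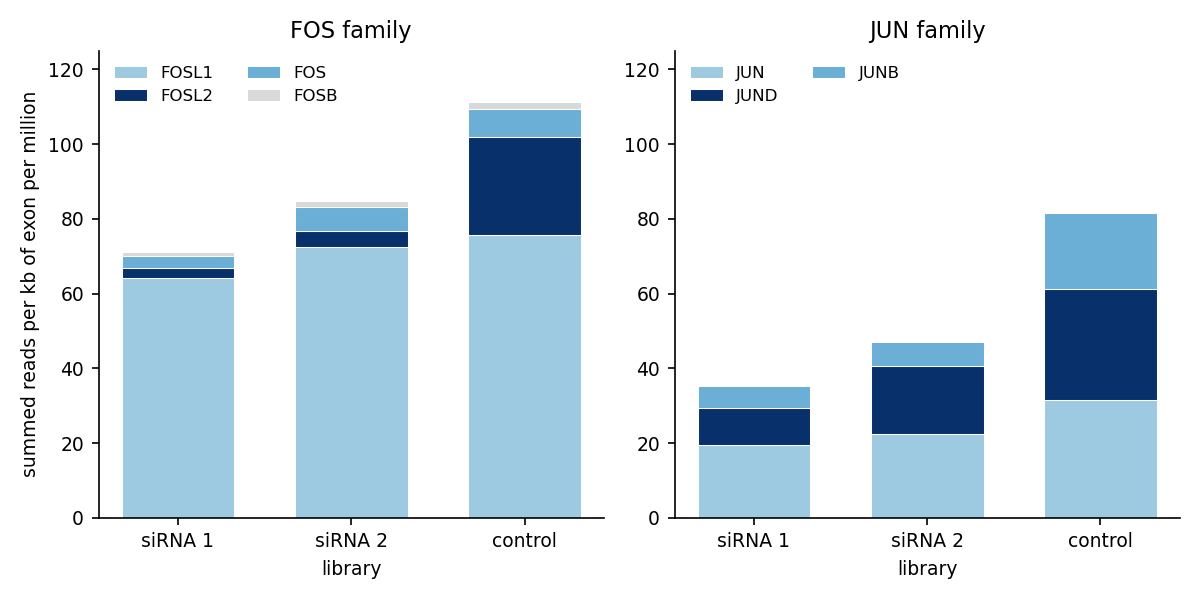
Summed level (CPM per kb of union exon) of the FOS family, left, and the JUN family, right, with siRNA 1, with siRNA 2 and in the control, 1 library each, stacked by gene. The FOSL2 segment is 3.54% and 5.08% of the bar with the siRNAs and 23.5% in the control, and the JUN family bar is 35.3 and 46.9 against 81.5. Bars are scaled by total count, without TMM scaling or removal of a trend on GC content.

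Among the other 3 genes, EGR1 (ENSG00000120738, chr5:138465490-138469315) had 3042 counts with siRNA 1 and 3371 with siRNA 2, against 4593 in the control. Its ratios to the control were 0.671 and 0.715, alike with both siRNAs. IER2 (ENSG00000160888, chr19:13150415-13154908) had 424 counts with siRNA 1 and 520 with siRNA 2, against 852 in the control, or -0.98 and -0.75 on the log2 scale, just short of 2-fold with siRNA 1. AC011446.2, antisense to 30.8% of the IER2 exon bases, had 0, 2 and 3 counts with siRNA 1, with siRNA 2 and in the control. ATF3 (ENSG00000162772, chr1:212565334-212620777), a stress-induced bZIP factor, had 316 and 305 counts with siRNA 1 and siRNA 2, against 325 in the control. The counting intervals of both ATF3 ratios, 0.841 to 1.15 and 0.779 to 1.07, include 1. The same held with siRNA 2 for FOS (0.808 to 1.07), FOSB (0.680 to 1.05) and FOSL1 (0.942 to 1.05). These intervals hold no replicate error, so an interval without 1 is not a test of a difference either.

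**Figure D3:**
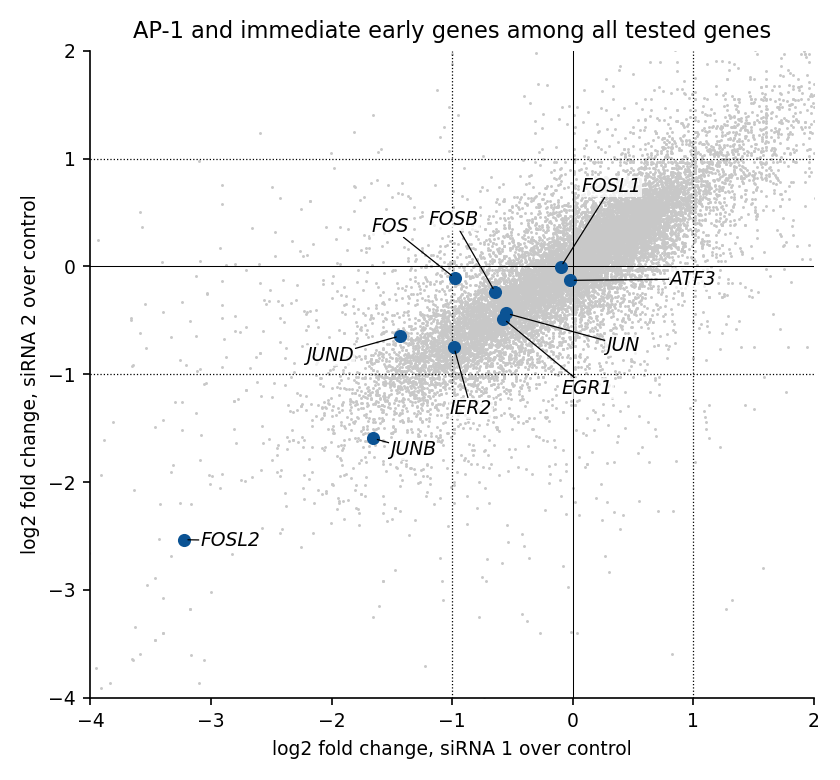
Log2 fold change with siRNA 1 (x axis) and siRNA 2 (y axis) over the control for all tested genes within the axes (grey) and the 10 genes (blue), with dotted lines at 2-fold. FOSL2 (-3.23, -2.53) and JUNB (-1.65, -1.59) lie beyond 2-fold on both axes, and JUND (-1.43, -0.64) on the x axis alone.

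The siRNA libraries were also set against each other, without the control. Of the 10 genes, 9 had lower levels with siRNA 1 than with siRNA 2, against 50.5% of all tested genes. The largest of these differences on the log2 scale were -0.87 for FOS, -0.79 for JUND and -0.69 for FOSL2. JUNB, at -0.06, and EGR1 and FOSL1, at -0.09 each, were near equal, and ATF3 was the exception at 0.11. With the trend on GC content removed, described next, 5 of 10 were lower with siRNA 1, against 50.8% of genes, and FOS stood at -0.82, FOSL2 at -0.63 and JUND at -0.45. With 1 library per siRNA these differences have no replicate check.

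Fold changes across all genes moved with GC content, taken from each gene's longest transcript. Spearman's rho over 17209 genes, which are not independent, was -0.68 with siRNA 1 and -0.64 with siRNA 2. The 10 genes had a median GC content of 57.2%, against 48.5% for all tested genes, and lay between 46.7% for ATF3 and 69.7% for JUND. Over the 10 genes rho was -0.39 and -0.36, as a description of genes that share their libraries. A lowess trend on GC was subtracted from each fold change. FOSL2 (53.3% GC) then stood at -2.94 with siRNA 1 and -2.32 with siRNA 2; before removal it stood at -3.23 and -2.53. JUNB (64.9% GC) stood at -0.53 and -0.75, which is under 2-fold, the trend at its GC content being -1.12 and -0.85. JUND turned to 0.01 and 0.45, FOSL1 to 0.69 and 0.59, and FOSB to -0.03 and 0.23. FOS kept -0.74 with siRNA 1 and turned to 0.07 with siRNA 2. JUN, IER2, EGR1 and ATF3 lay between -0.26 and -0.02 with both.

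After this removal 6 of 10 genes were lower with both siRNAs, against 35% of genes, and 2, FOSL1 and JUND, were higher with both, against 37.4%. FOSL2 alone was at least 2-fold lower with both, against 1.4%, and none was 2-fold higher, against 3.35%. Over all tested genes 241 were lower and 576 higher by 2-fold, against 871 and 691 before. The median of the 10 genes was -0.11 with siRNA 1 and -0.04 with siRNA 2, and -0.81 and -0.46 before. Whether GC content has a part in the lower levels was not tested.

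**Figure D4:**
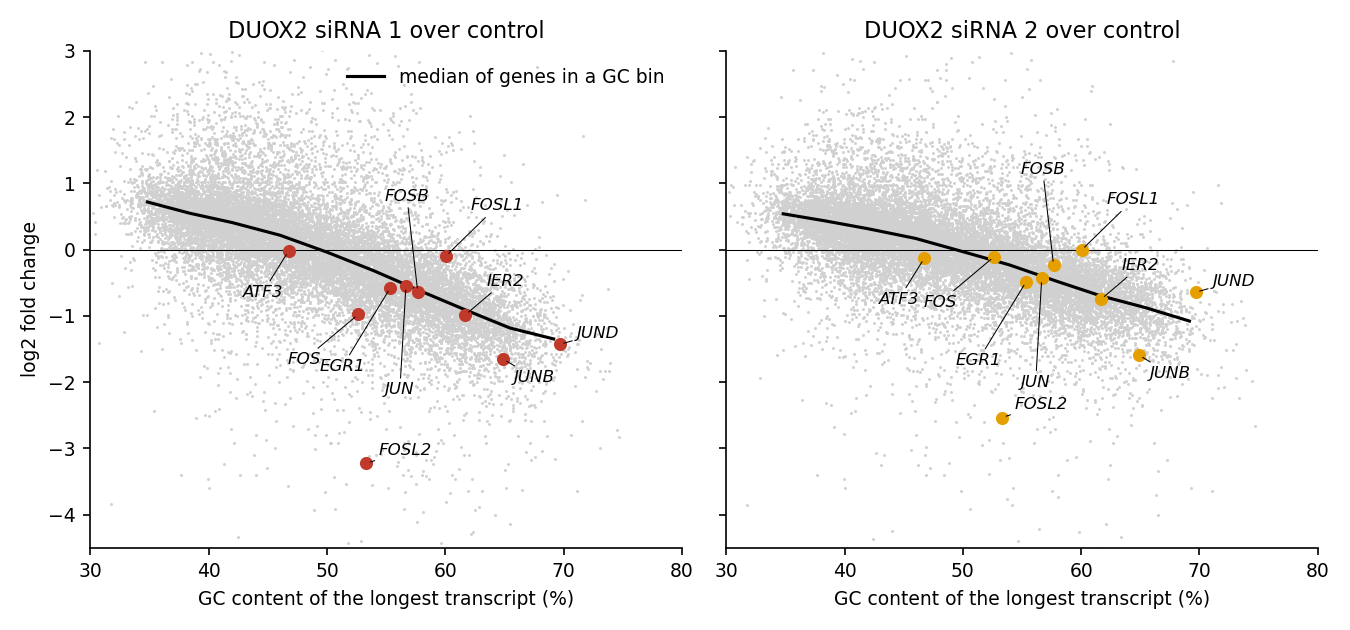
Log2 fold change over the control against GC content of the longest transcript (%), with siRNA 1, left, and siRNA 2, right, for tested genes within the axes (grey), their median in 10 bins of GC content (line) and the 10 genes (coloured). FOSL2 lies below the line in both panels, JUNB less so, and IER2 and JUN lie near it.

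FOSB, JUNB, JUND and IER2 lie on chromosome 19, JUNB and IER2 357 kb apart. The 1131 tested genes of that chromosome had median log2 fold changes of -0.64 with siRNA 1 and -0.51 with siRNA 2, against 0.02 and -0.01 over all genes. Of them 13.3% were at least 2-fold lower with both siRNAs, against 5.05% of all tested genes. With the GC trend removed the medians of the chromosome 19 genes were -0.05 and -0.04. JUN, JUNB, JUND and IER2 have 1 exon in their longest coding transcript, FOSL2, FOSL1, FOS, FOSB and ATF3 have 4 and EGR1 has 2. Among the genes with 1 exon, JUN was 1.46-fold and 1.35-fold lower and JUNB 3.15-fold and 3.02-fold lower, and exon number was not set against fold change over all genes. An AU-rich nonamer that marks unstable mRNAs, TTATTTATT, was in the 3′ UTR of FOSL2 and FOS and not of the other 8, against 9.14% of 3′ UTRs. Those had a median length of 1591 bases, against 4864 for FOSL2 and 806 for FOS. Other AU-rich elements were not searched.

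Genes with the most similar fold changes were sought among 11732 other protein-coding genes, by Euclidean distance over the log2 fold changes of both siRNAs, which rest on 3 libraries. Nearest to FOSL2 was AP002990.1, at a distance of 0.182, with 135 counts with siRNA 1 and 221 with siRNA 2, against 1393 in the control, though it shares exons with another gene. TMC8, without such overlap, came next at 0.253, with 39 and 58 counts, against 325 in the control, followed by NDST2 and LRRC26, which share exons with other genes, and ZNF440. Nearest to JUNB was MZT2B at 0.0624, with 217 counts with siRNA 1 and 223 with siRNA 2, against 688 in the control, followed by LRRC56, SLC15A3, PPL and TMEM160. The last of these lay at 0.564 from FOSL2 and at 0.0967 from JUNB.

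In all, 6 lists of other genes of the pathway held 76 tested genes. Counts were tested by edgeR's quasi-likelihood method with Benjamini-Hochberg adjustment over all genes. It called 10 of 17263 genes (0.0579%), 3 higher (0.0174%) and 7 lower (0.0405%), while 4496 had an unadjusted p under 0.05. Of the 76, 1 was called, MYC, higher with the siRNAs. DESeq2 called 3.28% of all genes and 11 of the 76. At least 2-fold with both siRNAs, 8 of the 76 were lower, against 5.05% of all genes, and 2 were higher, against 4%. By any size, 42 of the 76 were lower with both and 20 higher, against 41.6% and 41.9% of all genes.

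Of 11 other AP-1 family and partner bZIP genes, 0 were called by edgeR, 8 were lower with both siRNAs and 1 higher, against 41.6% and 41.9% of all genes. MAFF, a small MAF protein without an activation domain, had 76 counts with siRNA 1 and 239 with siRNA 2, against 983 in the control, so both siRNA libraries were low, at -3.64 and -2.07 on the log2 scale (edgeR adjusted p = 0.114). Its log2 fold changes with the GC trend removed were -2.72 and -1.37. ATF7, an ATF2 relative, had 1308 and 1255 counts with siRNA 1 and siRNA 2, against 484 in the control (edgeR adjusted p = 0.109). It shares 18.2% of its exon bases with another gene on its strand and is uncertain. ATF2, a partner of JUN, had log2 fold changes of 0.57 and -0.04. MAFG, another small MAF gene, had -0.91 and -1.12, MAFK -1.60 and -0.27, and JDP2, a JUN-dimerising repressor, -0.41 and -0.24. The list's median was -0.74 with siRNA 1 and -0.48 with siRNA 2, against 0.02 and -0.01 over all genes, and -0.33 and -0.13 with the GC trend removed.

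Of 22 other immediate early genes, 1 was called by edgeR, 12 were lower with both siRNAs and 5 higher (all genes 41.6% and 41.9%). MYC, the growth factor-induced transcription factor, rose to 2447 counts with siRNA 1 and 2709 with siRNA 2, against 281 in the control (edgeR adjusted p = 0.0274, log2 fold change 3.19). Over the other tests run its adjusted p lay between 1.48e-23 with DESeq2 and 0.340 without a filter. A further 5 of the 22 were at least 2-fold lower with both without passing edgeR. Of all tested genes 5.05% were at least 2-fold lower with both. CSRNP1, a nuclear protein induced by AXIN1, had 128 counts with siRNA 1 and 158 with siRNA 2, against 488 in the control. NR4A1, an orphan nuclear receptor, had 205 counts with siRNA 1 and 202 with siRNA 2, against 497 in the control. In the same order IER5L had 105 and 130 counts, against 297 in the control, ARC 21 and 25, against 60, and EGR4 10 and 12, against 30. With the GC trend removed CSRNP1 kept 2-fold, at -1.21 and -1.13, NR4A1 stood at -0.48 and -0.74, and IER5L, ARC and EGR4 lay between -0.36 and -0.16. Among the abundant genes of the list, KLF6 and MCL1, an anti-apoptotic BCL2 protein, had positive values with both siRNAs, of 0.54 and 0.55 for KLF6 and 0.49 and 0.42 for MCL1. IER3 had -0.94 and -0.10, and PPP1R15A, a stress-induced phosphatase subunit, had -0.53 and -0.29. The list's median was -0.46 with siRNA 1 and -0.19 with siRNA 2, and -0.19 and -0.03 with the GC trend removed.

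Of 15 kinases upstream of AP-1, 0 were called by edgeR, 8 were lower with both siRNAs and 5 higher (all genes 41.6% and 41.9%). MAP2K4, which activates JNK, had 217 counts with siRNA 1 and 219 with siRNA 2, against 980 in the control, and missed the threshold (edgeR adjusted p = 0.0659, between 2.51e-06 and 0.340 over the other tests). With the GC trend removed it stood at -2.56 and -2.50. The log2 fold changes of the abundant kinases named here were 0.51 and 0.26 for MAPK9, the JNK2 kinase, 0.92 and 0.71 for RPS6KA3 and -0.02 and 0.47 for MAP3K1. The list's median was -0.33 with siRNA 1 and -0.05 with siRNA 2, and -0.09 and 0.004 with the GC trend removed.

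Of 9 SRF, TCF and CREB factors, which bind immediate early promoters, 0 were called by edgeR, 4 were lower with both siRNAs and 4 higher (all genes 41.6% and 41.9%). ELK4, ELK1 and ELK3, partners of serum response factor, had log2 fold changes of 0.93 and 0.79, of -0.67 and -0.45, and of 0.11 and -1.56. ATF1 had 0.64 and 0.80. The median of the list was 0.03 with siRNA 1 and -0.45 with siRNA 2, on opposite sides of 0, and -0.11 and -0.02 with the GC trend removed.

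Of 18 AP-1 target genes 13 passed the filter, 0 were called by edgeR, 6 were lower with both siRNAs and 4 higher (all genes 41.6% and 41.9%). CCND1, the cyclin that drives G1, had 47273 counts with siRNA 1 and 46684 with siRNA 2, against 42840 in the control. CD44, a surface receptor for hyaluronan, had 0.19 and 0.06 on the log2 scale and EZR, which links membrane and actin, had -0.24 and 0.23. MMP7 and MMP13 had 0 counts in every library. The list's median was -0.24 with siRNA 1 and -0.01 with siRNA 2, and -0.03 and 0.08 with the GC trend removed.

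Heat shock genes were set beside these because stress during handling induces immediate early genes. Of 6, 0 were called by edgeR, 4 were lower with both siRNAs and 1 higher (all genes 41.6% and 41.9%). HSPB1, a small heat shock protein, had 1580 counts with siRNA 1 and 1856 with siRNA 2, against 4046 in the control. HSPB1 was more than 2-fold lower with both (edgeR adjusted p = 0.105), and 5.05% of all tested genes were at least 2-fold lower with both. HSPA1A, which has a near-identical copy in HSPA1B and is uncertain, had 1549 and 1712, against 3153. With the GC trend removed HSPB1 stood at -0.25 and -0.34 on the log2 scale, under 2-fold, and HSPA1A at -0.24 and -0.33. HSPA8, DNAJB1 and HSPH1 had log2 fold changes of 0.25 and 0.12, of -0.65 and -0.22, and of 0.30 and -0.20. The list's median was -0.79 with siRNA 1 and -0.49 with siRNA 2, beside -0.81 and -0.46 for the 10 AP-1 and immediate early genes. The list of bZIP genes lay about as near, at -0.74 and -0.48. With the GC trend removed the heat shock median was -0.24 and -0.28, beside -0.11 and -0.04 for the 10 genes. Any part of handling stress in these levels was not tested.

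**Figure D5:**
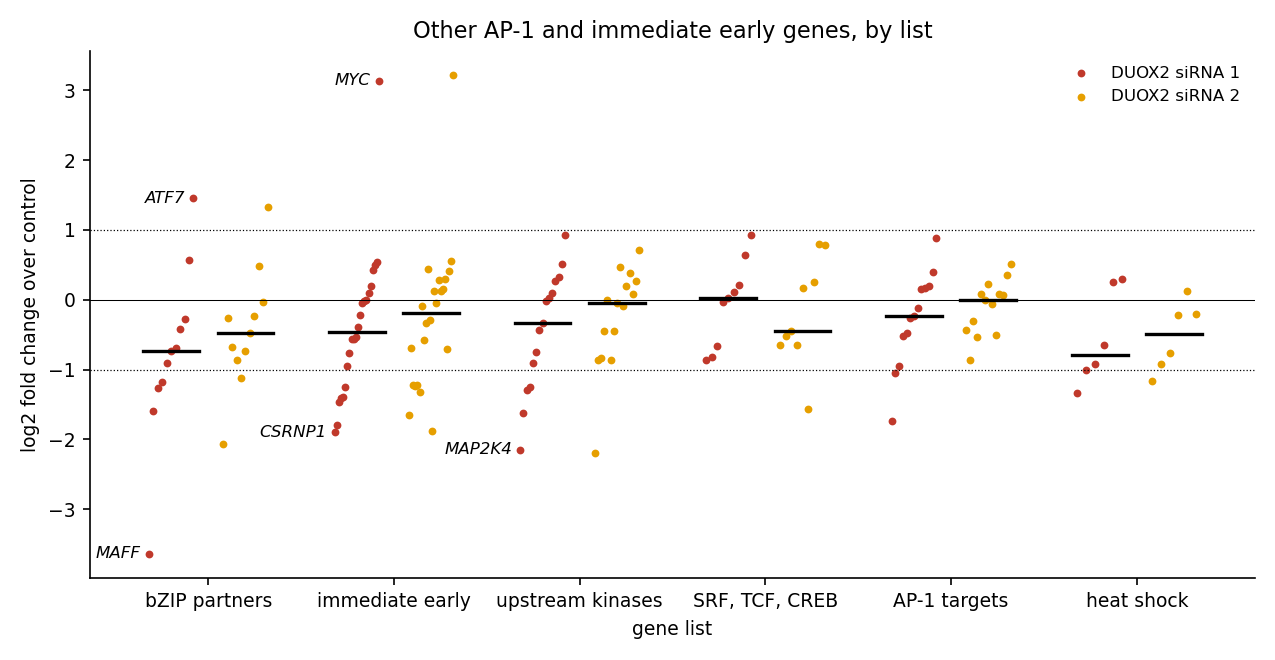
Log2 fold change over the control with siRNA 1 (red) and siRNA 2 (orange) for the tested genes of 6 lists, with the median of each as a bar and dotted lines at 2-fold. MYC lies above 3 with both siRNAs, MAFF, CSRNP1 and MAP2K4 lie below -1 with both, and 0 AP-1 target genes lie beyond 2-fold with both. Of all tested genes 5.05% were at least 2-fold lower and 4% at least 2-fold higher with both.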

How the data were processed

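The RNA libraries, 3 from HCT116 cells with 1 per label, were analysed from the authors' deposited table of raw read counts and FPKM per gene. The aligner Bowtie 0.12.2 appears in the submitters' processing notes, beside the builds GRCh38 and mm8, with no role given. The gene coordinates are those of GRCh38, and 97.5% of 58039 genes had the coordinates of GENCODE 29. The sources used here do not say how reads were counted, by strand or when multiply aligned. The authors' FPKM equals the deposited count over a gene length and the column total.

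Both siRNA libraries formed one group against 1 control library, so p-values measure only the spread between these siRNA libraries, which may be technical. Counts were tested with edgeR 4.0.16 in R 4.3.3 (TMM, filterByExpr with a minimum count of 10, glmQLFit, glmQLFTest, Benjamini-Hochberg threshold 0.05, 1 residual degree of freedom). The edgeR test was also run on simulated counts with known fold changes, with the same dispersion for every gene and no trend on GC content. That outcome is not reported here and says nothing on such a trend. DESeq2 1.42.0 and limma 3.58.1 on log2 FPKM were alternatives, with other scalings, filters, prior counts, removal of a GC trend (lowess fraction 0.3) and each siRNA left out. GC content was known for 99.7% of tested genes.

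The members and lists were chosen with earlier results of these data known. Named genes are the members, list genes that were called or 2-fold away with both siRNAs, up to 4 further abundant genes of each list, and the 5 genes nearest to FOSL2 and to JUNB; MMP7 and MMP13 were named after their values were seen. Some genes that this rule names are not reported here. Overlap with other genes was read from GENCODE 29.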

Additional observations from a re-analysis of the deposited data

How the results depend on the processing

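No paired analysis was possible because the control has 1 library. No test was possible with 1 siRNA library left out, since no residual degrees of freedom remain.

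The mean log2 fold change of each of the 10 genes kept its sign under the other scalings, filters and prior counts, with FPKM and with either siRNA left out. With the GC trend removed it reversed for FOSB (0.10), FOSL1 (0.64) and JUND (0.23). The genes at least 2-fold lower with both siRNAs numbered 2 of 10, 1 with the GC trend removed, and 2 to 3 with 1 siRNA left out. Those lower with siRNA 1 than with siRNA 2 numbered 9, and 5 with the GC trend removed.

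Over all genes, 871 lower became 1701 without a filter, 548 when each library had to reach 1 CPM, 241 with the GC trend removed, 239 with log2(FPKM + 1), and 1354 to 2132 with 1 siRNA left out. The 691 higher became 352 when each library had to reach 1 CPM, 208 with log2(FPKM + 1), and 957 to 1391 with 1 siRNA left out. In the lists, 8 lower became 3 with the GC trend removed, 5 with log2(FPKM + 1) and 11 to 18 with 1 siRNA left out, and 2 higher became 1 with log2(FPKM + 1). Scaling by total count moved the median of all genes to -0.12 with siRNA 1.

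The 10 genes called by edgeR (3 higher, 7 lower) became 567 with DESeq2 (263 higher, 304 lower; 11 of the lists, against 1), which gave no adjusted p for 7029 genes. They became 0 (0 higher, 0 lower, 0 of the lists) in edgeR when no filter was used, when each library had to reach 1 CPM, and with the GC trend removed, where 3938, 4050 and 1787 genes had an unadjusted p under 0.05. With limma on log2(FPKM + 1) and log2(FPKM + 0.1) they also became 0, with 4282 and 4010 such genes. Scaling by total count left 9 called in edgeR, MYC not among them (0 of the lists, adjusted p = 0.0752). The causes were not tested. Of the 10 AP-1 and immediate early genes, FOSB had the fewest counts, and its depth limits what can be read from it most.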
